A study of Mus musculus and synthetic construct with 15 samples.

Results

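The regions described here are 199 of the 3820 candidate regulatory sequences, each 400 bp long, in a reporter library tested in mouse heart. They were chosen by 2 entries of the deposited region table and by no measured value: an identifier that carries the tag GeneAVB and no other tag, and a group entry of TF1-2, TF3-4 or Neg. Of the 199, 111 were in group TF1-2 and 88 in group TF3-4, and no region with the GeneAVB tag alone was in group Neg. The working description of the set, regions near chamber genes with weaker transcription factor occupancy, rests on these tags, whose meaning the sources used here do not spell out. Occupancy is not measured by the counts, so the description could not be checked against them.

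All animals were wild-type mice. A pool of the sequences in adeno-associated virus serotype 9 (AAV9), a vector that reaches heart muscle efficiently, was injected at birth (postnatal day 0), and tissue of the atria and of the ventricles was taken at postnatal day 7. Counts per region came from 5 libraries of atrial RNA, 5 of ventricular RNA and 5 of DNA released from the AAV9 pool itself, against which the RNA is set here. The labels name cardiomyocytes as the cell type of the RNA samples, and the counts hold reporter sequences only, so marker genes of heart muscle or of other cells could not be checked. The labels do not say whether the 5 replicates of a chamber came from separate animals, so the p-values speak only of variation among these libraries, and that variation could be technical.

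Enhancers are stretches of DNA that raise transcription of a gene from a distance when transcription factors bind them. In a massively parallel reporter assay, many such sequences are tested side by side, and the RNA carried by each sequence is set against the DNA of the same sequence in the delivered pool. Cardiac factors such as GATA4, TBX5, NKX2-5, MEF2 and TEAD1 bind together at many heart enhancers, and atrial and ventricular muscle cells differ in the enhancers and genes they use, among them Irx4 in the ventricle and Kcnj5 in the atrium.

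Of the members, 125 lay inside a protein-coding gene of the RefSeq annotation of GRCm38 (the build mm10). 1 had no protein-coding gene within 100 kb, and the remaining members were named by the nearest gene body. The nearest gene is a position and not a shown target. The 198 members with a gene fell to 148 genes, of which 109 had 1 member, 31 had 2 and 6 had 3. Lclat1 had 4 members and Cxxc5 had 5.

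Sequences are shown for 5 members that hold part of a RefSeq promoter window, since the letters of the window can then be set beside the reporter values. All are from RefSeq GRCm38.p6, run 5′ to 3′ on the strand of the gene, and stop before the transcription start. The first is the promoter of Hip1, an adaptor protein of endocytosis, at chr5:135489230-135489479 on the minus strand. It lies whole inside the TF3-4 member GeneAVB-1360-0, and its last 43 bases, in capitals, also lie in the overlapping TF3-4 member GeneAVB-1359-0.
Hip1 promoter in GeneAVB-1360-0: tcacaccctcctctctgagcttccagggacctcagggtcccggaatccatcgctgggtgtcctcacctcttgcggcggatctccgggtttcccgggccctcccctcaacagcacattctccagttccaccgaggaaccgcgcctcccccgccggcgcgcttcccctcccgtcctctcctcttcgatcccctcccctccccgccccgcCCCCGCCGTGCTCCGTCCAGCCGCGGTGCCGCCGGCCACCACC
The GC content of these 250 bases was 71.2%, against a median of 52.4% over the same 250 bases of all 32851 RefSeq promoter windows.

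Another pair of members lies at the start of Gm19497, a long non-coding RNA gene on the minus strand of chromosome 1. The part in GeneAVB-1043-0, chr1:134060948-134061046, reaches the start, and the part in GeneAVB-1044-0, chr1:134061075-134061197, lies further upstream.
Gm19497, part in GeneAVB-1043-0: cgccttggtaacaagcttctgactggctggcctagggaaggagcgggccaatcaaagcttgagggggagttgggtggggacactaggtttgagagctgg
Gm19497, part in GeneAVB-1044-0: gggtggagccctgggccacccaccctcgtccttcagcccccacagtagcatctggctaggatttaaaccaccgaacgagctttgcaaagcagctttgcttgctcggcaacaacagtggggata
GeneAVB-878-0 holds the 221 bases before the start of Gm32718, a long non-coding RNA gene on the plus strand, at chr19:56746693-56746913. Capitals mark matches to motifs of cardiac factors.
Gm32718 promoter part in GeneAVB-878-0: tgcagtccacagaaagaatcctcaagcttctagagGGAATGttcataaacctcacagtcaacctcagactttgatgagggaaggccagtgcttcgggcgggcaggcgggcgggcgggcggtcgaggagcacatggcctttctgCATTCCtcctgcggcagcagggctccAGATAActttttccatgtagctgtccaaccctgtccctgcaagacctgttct
GeneAVB-1530-0, a TF3-4 region inside Nav2 with too little DNA to be tested, holds 177 bases upstream of 9130015G15Rik, a long non-coding RNA gene on the minus strand, at chr7:49162232-49162408. The stretch ends 73 bases before the start, and the capitals are again a motif match.
9130015G15Rik upstream part in GeneAVB-1530-0: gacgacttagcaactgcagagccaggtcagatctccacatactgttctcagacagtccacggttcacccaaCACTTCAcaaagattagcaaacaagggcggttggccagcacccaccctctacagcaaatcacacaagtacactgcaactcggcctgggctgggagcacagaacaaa

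Motifs were searched on both strands as the site of GATA factors (AGATAA together with TGATAA, likewise AGATAG together with TGATAG), TBX (AGGTGTGA, AGGTGTTA), NKX2-5 (TNAAGTG), MEF2 (TATTTATA, TAAAAATA, TATTTTTA, TATAAATA), TEAD (GGAATG) and the core site of nuclear receptors (AAGGTCA). Overlaps between matches of different motifs were allowed. The Hip1 and Gm19497 stretches held none of these letters, whereas the Gm32718 stretch held 1 GATA match and 2 TEAD matches and the 9130015G15Rik stretch 1 NKX2-5 match. Among all promoter windows cut to the same 221 bases, 23.6% held a GATA match and 11.2% a TEAD match, and among the 177 bases farthest from the start 7.58% held an NKX2-5 match. In 250 bases the shares were 26.5% for GATA, 12.6% for TEAD, 10.1% for NKX2-5, 4.08% for the nuclear receptor site, 3.9% for MEF2 and 1.51% for TBX. A match describes letters in the window and is not a shown binding site.

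Library totals ran from 877773 counts in atrial replicate 1 to 3781726 in ventricular replicate 4, so that 0 counts allow up to 3.42 to 0.793 CPM (counts scaled to a library of 1000000). The members took 4.45% to 5.03% of the counts in the RNA libraries and 6.03% to 6.18% in the DNA libraries. Replicate 1 of both chambers stood apart from replicates 2 to 5: the 53 members with a mean of under 10 DNA counts made up 0.0197% and 0.0237% of the counts in replicate 1 of atrium and ventricle, against 0.42% to 0.526% in the other atrial and 0.594% to 0.632% in the other ventricular libraries. These 53 were left out of the tests, and results are given with and without replicate 1 where it matters. Replicates 2 to 5 held RNA of sequences without DNA counts, so whether the DNA libraries represent the pool behind those replicates was not tested, and this bears on every ratio of RNA over DNA. The tests covered 146 members, 80 of TF1-2 and 66 of TF3-4, among 2601 regions of the library with a mean of at least 10 DNA counts. Values per library below are CPM after 1 scaling over all 15 libraries, and changes are log2 ratios fitted by edgeR with their standard errors and Benjamini-Hochberg adjusted p-values over the 2601 regions.

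The first comparison asked which members gave more RNA in one chamber than in the other. A similar number of members favoured each chamber: 21 of 146 (14.4%) were higher in atrium and 20 (13.7%) were higher in ventricle at an adjusted p under 0.05, while 105 did not pass. Over all 2601 regions the shares were 15.8% higher in atrium and 15.1% higher in ventricle, so both member shares lay near the background. The median log2 ratio of atrium over ventricle was -0.00 for the members and 0.03 for all regions. Changes were mostly small, with a median size of 0.69 for members higher in atrium and 0.63 for members higher in ventricle. At least a 2-fold difference was reached by 5 and 4 members (3.42% and 2.74%), against 4.88% and 3.04% of all regions. All 41 called members had a difference of the same sign in replicate 1, but replicate 1 was itself part of the test that called them. With replicate 1 left out of both chambers, 33 of the 41 were also called. Replicates 2 to 5 were part of the first test as well, and the share kept was not taken over all regions. In all, that setting called 37 of the 146 members, and 391 of the 2601 regions as higher in atrium and 328 as higher in ventricle.

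The chambers' 5 and 5 libraries did not overlap for 27 members (18.5%), against 23% of all regions. Of these 27, 8 were called higher in atrium and 17 higher in ventricle. That split was not taken over all regions, so it cannot be read as particular to the members. In TF1-2, 11 of 80 (13.8%) passed in favour of the atrium and 8 (10%) of the ventricle, with a median of 0.02. In TF3-4, 10 of 66 (15.2%) passed in favour of the atrium and 12 (18.2%) of the ventricle, with a median of -0.09. For orientation, GeneAVB-only regions of group MTF or P300 numbered 446, of which 23.3% favoured the atrium and 13% the ventricle. Of 469 ESC-Neg regions of group Neg, 3.2% favoured the atrium and 12.2% the ventricle. When the scaling was taken from those ESC-Neg regions alone, the split of all regions moved from 412 and 392 to 578 and 226, the median of all regions shifted by 0.16, and the members' split became 33 higher in atrium and 12 higher in ventricle. Which chamber holds more of the called members therefore depends on the scaling.

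Of the members higher in ventricle, the one at Irx4 had the nearest gene most closely tied to the ventricle. Irx4 encodes an Iroquois homeobox transcription factor of ventricular muscle. GeneAVB-513-0, a TF3-4 region at chr13:73290195-73290594, lies 20772 bp from the gene body. It measured 374, 395, 438, 364 and 490 CPM in the atrial libraries and 877, 813, 823, 827 and 846 CPM in the ventricular ones, with 472, 535, 436, 518 and 514 CPM in DNA. All ventricular libraries stood above all DNA and atrial libraries, and the atrial values overlapped the DNA. The log2 ratio of atrium over ventricle was -1.01 ± 0.10 (SE, adjusted p = 1.1e-06), that of ventricle over DNA 0.76 ± 0.08 and that of atrium over DNA -0.37 ± 0.11. The atrial ratio over DNA was 0.10 with library totals and 0.04 with the ESC-Neg scaling, neither past the threshold, so its sign rests on the scaling.

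The member with the smallest adjusted p between the chambers lies inside Syt7, which encodes a synaptotagmin, a calcium sensor of membrane fusion. GeneAVB-844-0, a TF3-4 region at chr19:10417001-10417400, gave 1355, 1467, 1335, 1568 and 1358 CPM in atrium, 3256, 2392, 2812, 2598 and 2884 CPM in ventricle, and 451, 437, 457, 430 and 458 CPM in DNA. The 3 kinds of library did not overlap: every RNA library was above every DNA library, and every ventricular library above every atrial one. Atrium over ventricle was -0.96 ± 0.09 (adjusted p = 4.9e-07), and the ratios over DNA were 1.56 ± 0.07 in atrium and 2.64 ± 0.09 in ventricle.

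The largest called differences toward the ventricle were at Ddo, which encodes D-aspartate oxidase, and Mrvi1, which encodes a partner of the inositol trisphosphate receptor and cGMP-dependent kinase in smooth muscle. GeneAVB-220-0, a TF1-2 region inside Ddo at chr10:40670851-40671250, measured 51, 96.3, 57.4, 63.2 and 65.3 CPM in atrium, 133, 202, 194, 165 and 190 CPM in ventricle and 39.3, 46.7, 22.8, 47.9 and 47.9 CPM in DNA. The atrial libraries lay above the DNA and below the ventricular libraries, without overlap. The difference between the chambers was -1.39 ± 0.21 (adjusted p = 9.4e-05), with ratios over DNA of 0.59 ± 0.25 in atrium, a call that ended without atrial replicate 2, 4 or 5 or DNA replicate 3 (adjusted p of up to 0.143), and 2.11 ± 0.19 in ventricle. GeneAVB-1575-0, a TF3-4 region inside Mrvi1 at chr7:110906904-110907303, had little DNA, with 8.17, 5.24, 5.26, 13.8 and 12.1 CPM. It measured 47.8, 23.8, 59.6, 75.5 and 54.3 CPM in atrium and 109, 155, 138, 133 and 152 CPM in ventricle. Here too the DNA, atrial and ventricular libraries formed 3 separate ranges, and the chamber difference was -1.38 ± 0.26 (adjusted p = 7.3e-04).

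A TF1-2 region with no protein-coding gene within 100 kb, GeneAVB-927-0 at chr2:71670821-71671220, also favoured the ventricle. Its values were 115, 134, 144, 151 and 156 CPM in atrium, 278, 280, 256, 196 and 242 CPM in ventricle and 185, 161, 172, 149 and 158 CPM in DNA. The ventricular libraries were above all DNA libraries, and the atrial range reached into that of the DNA from below. Atrium over ventricle was -0.81 ± 0.15 (adjusted p = 6.9e-04), ventricle over DNA 0.60 ± 0.12 and atrium over DNA -0.33 ± 0.13. The last call ended without any of DNA replicates 1, 2, 3 and 5 (adjusted p of 0.126 to 0.226). A similar chamber difference, -0.81 ± 0.15, was found for GeneAVB-459-0, a TF3-4 region 647 bp from Cmah, which encodes the hydroxylase that makes N-glycolylneuraminic acid. There both chambers were above DNA, by 0.43 ± 0.15 in atrium and 1.37 ± 0.11 in ventricle on the log2 scale. The atrial call ended with no filter, with the filterByExpr filter of edgeR and with the replicate number as a block (adjusted p of 0.0633, 0.101 and 0.0524).

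The extracellular matrix gene Fbln1 (fibulin 1) holds GeneAVB-634-0, a TF3-4 region that followed the Irx4 pattern with a smaller difference. The region, at chr15:85229882-85230281, measured 594, 590, 579, 625 and 585 CPM in atrium, 915, 793, 855, 813 and 728 CPM in ventricle and 745, 688, 787, 668 and 699 CPM in DNA. The atrial libraries were below all others, and the ventricular range overlapped that of the DNA. Atrium over DNA was -0.37 ± 0.07 and ventricle over DNA 0.19 ± 0.08, with a chamber difference of -0.45 ± 0.08 (adjusted p = 6.6e-04). With Irx4 and GeneAVB-927-0 it was 1 of 3 members called below DNA in atrium and above DNA in ventricle, a pattern not counted over all regions. In all 3 the atrial ratio over DNA turned positive, between 0.03 and 0.14, with library totals or the ESC-Neg scaling. The ventricular call of Fbln1 ended without any of ventricular replicates 1 to 4 or DNA replicates 2, 4 and 5 (adjusted p of 0.0707 to 0.317). It also ended with DESeq2, and in edgeR with no filter and with filterByExpr (adjusted p of 0.344, 0.634 and 0.985).

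Further members whose ventricular libraries all exceeded the atrial ones were a Cxxc5 region described below and those at Ift43 (intraflagellar transport), Fras1 (an extracellular matrix protein of basement membranes), Zfp90 (a zinc finger protein), Sytl2 (a synaptotagmin-like partner of Rab27) and Rprd1b (a regulator of RNA polymerase II). Apart from the Cxxc5 region, their log2 ratios ran from -0.64 ± 0.20 at Ift43 to -0.50 ± 0.13 at Rprd1b. Ift43 had the weakest support, with an adjusted p of 0.0247 that became 0.0625 without replicate 1 and ranged up to 0.0636 when a ventricular library was left out. With the ESC-Neg scaling its adjusted p was 0.0953 and that of Rprd1b was 0.0613. The remaining 5 of the 17, at Fbln1, Fgf9, Nav2, Efs and Ccdc12, were between -0.45 and -0.39, and all but Fbln1 lost the call with the ESC-Neg scaling (adjusted p of 0.0516 to 0.111). Efs also lost it without replicate 1 (adjusted p = 0.0768).

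Among the members higher in atrium, the largest difference with separate libraries was at Ddc, which encodes the decarboxylase that makes dopamine and serotonin. GeneAVB-289-0, a TF3-4 region inside Ddc at chr11:11828700-11829099, measured 73.8, 92.2, 78.5, 93.6 and 342 CPM in atrium, 38.5, 64.3, 52.6, 42.3 and 53.5 CPM in ventricle and 40.8, 44.8, 43.2, 34.1 and 47.0 CPM in DNA. All atrial libraries were above all ventricular ones, and atrial replicate 5 was far above the other 4. The fitted difference of 1.45 ± 0.41 (adjusted p = 0.0165) became 0.76 (adjusted p = 0.0195) without that library, and the ratio of atrium over DNA went from 1.59 to 0.91.

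GeneAVB-1020-0, a TF1-2 region at chr1:77516113-77516512 and 1205 bp from Epha4, an ephrin receptor tyrosine kinase, favoured the atrium without a high atrial library of that kind. It measured 265, 240, 165, 293 and 349 CPM in atrium, 124, 111, 135, 159 and 127 CPM in ventricle and 299, 244, 343, 224 and 306 CPM in DNA. The lowest atrial value was just above the highest ventricular one. The chamber difference was 1.01 ± 0.19 (adjusted p = 6.6e-04). Atrial RNA over DNA, at -0.21 ± 0.18, did not pass (adjusted p = 0.301), while ventricular RNA over DNA was -1.11 ± 0.13.

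Several members higher in atrium were below DNA in both chambers. Lamb3 encodes a chain of the basement membrane protein laminin. GeneAVB-196-0, a TF1-2 region inside it at chr1:193330145-193330544, measured 417, 438, 435, 319 and 472 CPM in atrium and 262, 254, 247, 265 and 284 CPM in ventricle, against 3443, 3419, 4367, 3219 and 3807 CPM in DNA. Every RNA library was far below every DNA library, and the chambers were still separate. Atrium over DNA was -3.23 ± 0.11, ventricle over DNA -3.80 ± 0.10 and atrium over ventricle 0.68 ± 0.12 (adjusted p = 5.6e-04).

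The most abundant member in DNA showed the same order. GeneAVB-266-0, a TF1-2 region at chr11:5855911-5856310, lies 5756 bp from Aebp1, which encodes a carboxypeptidase-like protein of the extracellular matrix. It measured 4532, 3900, 3931, 3465 and 4333 CPM in atrium, 3067, 2693, 2893, 2671 and 3045 CPM in ventricle and 12077, 11810, 14175, 10783 and 12491 CPM in DNA. The 3 ranges were separate, with DNA on top, and the ratios were -1.70 ± 0.09 for atrium over DNA, -2.09 ± 0.09 for ventricle over DNA and 0.50 ± 0.08 between the chambers. The member inside Sbk3, a kinase gene, followed with 0.89 ± 0.14 between the chambers and -0.78 and -1.55 over DNA in atrium and ventricle. Besides a Cxxc5 region described below, Slc35f2 (a solute carrier) and Adamts8 (a secreted metalloprotease) had the remaining members with separate chambers, at 0.63 ± 0.15 and 0.30 ± 0.08.

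Of the called members whose chambers overlapped, the one inside Mb was picked out after its values were seen, because Mb encodes myoglobin, the oxygen store of muscle. GeneAVB-611-0, a TF1-2 region at chr15:77027674-77028073, measured 238, 192, 143, 257 and 479 CPM in atrium, 148, 94.7, 81.8, 110 and 132 CPM in ventricle and 198, 202, 244, 180 and 187 CPM in DNA. The lowest atrial library was within the ventricular range, and the highest was again replicate 5. Atrium over ventricle was 1.23 ± 0.28 (adjusted p = 0.00451), with ventricle over DNA at -0.84 ± 0.16 and atrium over DNA at 0.27 ± 0.26 (adjusted p = 0.349).

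Few members lay near textbook chamber genes. From a list of 31 atrial genes, 2 had a member as nearest gene and 1 of these was tested. Kcnj5 encodes a subunit of the potassium channel that acetylcholine opens in the atrium. GeneAVB-135-0, a TF1-2 region at chr9:32311744-32312143 and 2763 bp from Kcnj5, measured 173, 158, 93.4, 123 and 207 CPM in atrium, 91.6, 92.5, 96.2, 77.9 and 81.8 CPM in ventricle and 225, 182, 214, 191 and 183 CPM in DNA. The chambers overlapped by 1 atrial library. Atrium over ventricle was 0.79 ± 0.21 (adjusted p = 0.00899), and both chambers were below DNA, at -0.50 ± 0.19 in atrium and -1.18 ± 0.12 in ventricle. The atrial call over DNA ended with library totals (adjusted p = 0.894) and without any of atrial replicate 4 and DNA replicates 1, 2, 3 and 5 (adjusted p of 0.0636 to 0.119).

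From a list of 31 ventricular genes, 3 had a member by nearest gene body. All 3 members were tested, with a median log2 ratio of atrium over ventricle of -0.17. Only the Irx4 region passed. The member 7928 bp from Myh7, the beta myosin heavy chain, had a mean of 16.4 DNA counts and a ratio of -0.17 ± 0.61 (adjusted p = 0.875), so that even a 2-fold difference was not detectable at this depth. The member inside Rbpms, an RNA-binding protein gene, had 0.50 ± 0.33 (adjusted p = 0.295) and was above DNA in both chambers, by 2.31 ± 0.38 in atrium and 1.95 ± 0.22 in ventricle. Among ion channel genes, the Kcnq1 member did not pass in any comparison, with 0.32 ± 0.23 between the chambers. The lists of contractile and of transcription factor genes each had 1 member, those at Myh7 and Irx4. These lists were read by nearest gene body, and start sites would change them. GeneAVB-230-0, a TF3-4 region inside Cep85l, lies 2310 bp from the start of Pln, which is on the ventricular and contractile lists. It had -0.12 ± 0.23 between the chambers (adjusted p = 0.748) and 0.76 ± 0.17 for ventricle over DNA (adjusted p = 8.1e-04). By nearest gene body, the atrial and ventricular lists together held 1 called member in each direction among 4 tested.

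The second comparison asked whether a member gave more RNA than its share of the delivered DNA. In atrium, 36 of 146 members (24.7%) were above DNA and 74 (50.7%) below, whereas over all 2601 regions 38.4% were above and 36.3% below. In ventricle, 44 members (30.1%) were above DNA and 75 (51.4%) below, against 43.4% and 37.8% of all regions. Member medians were -0.48 in atrium and -0.47 in ventricle, where all regions had 0.04 and 0.13. A ratio of 0 here means the same share of RNA as of DNA after scaling, not an inactive sequence, and both comparisons share the DNA libraries. With library totals in place of the TMM scaling, all regions shifted by 0.48 in atrium and 0.37 in ventricle. The members then split into 57 above and 49 below in atrium, with 1312 and 600 of all regions, and into 57 above and 61 below in ventricle, with 1371 and 732 of all regions.

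TF3-4 members were above DNA more often than TF1-2 members in both chambers. In atrium, 21 of 66 TF3-4 members (31.8%) and 15 of 80 TF1-2 members (18.8%) were above, with medians of -0.11 and -0.57. In ventricle, 27 TF3-4 members (40.9%) and 17 TF1-2 members (21.2%) were above, with medians of -0.16 and -0.69. Groups MTF or P300 (35% and 37.7% above in atrium and ventricle) and spMTF or spP300 (35% and 39.8%) of the same tag lay closer to TF3-4 than to TF1-2, and ESC-Neg regions of group Neg had 24.5% and 35.6%. These shares were taken over all amounts of DNA. At a mean of 300 or more DNA counts, MTF or P300 and spMTF or spP300 had 15.8% and 16.4% above in ventricle. That was closer to TF1-2 (14%) than to TF3-4 (28.1%). In atrium they had 16.2% and 14.9%, closer to TF3-4 (18.8%) than to TF1-2 (9.3%). ESC-Neg regions had 5.14% in atrium and 16% in ventricle.

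The order held in each RNA library when set against the same mean of the DNA libraries. The median of log2(CPM + 1) minus the mean of the DNA libraries was -0.47, -0.41, -0.56, -0.58 and -0.61 over TF1-2 in the 5 atrial libraries, and -0.05, -0.03, -0.21, -0.10 and -0.05 over TF3-4. In the ventricular libraries it was -0.64, -0.73, -0.62, -0.64 and -0.63 over TF1-2 and -0.12, 0.04, -0.21, -0.13 and -0.24 over TF3-4. TF1-2 was thus lower by 0.35 to 0.55 in atrium and by 0.39 to 0.77 in ventricle. All RNA libraries share the DNA mean, so their values are not independent of each other. In single DNA libraries the difference of the medians was between -0.03 and 0.03. Values near 0 are built in there, since the mean of those same libraries is subtracted. Replicate 1 did not differ from the others in this order. The difference is given as a description with no test, since the members were chosen as sets and regions are not replicates of a condition.

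Part of the spread among members went with the amount of DNA. In atrium, the member median was 0.77 for the 39 members with a mean of 10 to under 100 DNA counts, -0.29 for the 32 with 100 to under 300, and -0.87 for the 75 with 300 or more. All regions showed the same descent, with 1.21, 0.20 and -0.66, and in ventricle the medians were 1.04, -0.35 and -0.83 for members and 1.43, 0.28 and -0.69 for all regions. The member median was below that of all regions in each of the 3 ranges and both chambers. The same held for ESC-Neg regions of group Neg, with 0.77, -0.33 and -0.94 in atrium and 1.05, -0.08 and -0.77 in ventricle. At 300 or more DNA counts it also held for the GeneAVB-only groups MTF or P300 (-0.72 and -0.85) and spMTF or spP300 (-0.91 and -0.72). At 100 to under 300 those groups were above all regions, with 0.36 and 0.31, and 0.41 and 0.63. With less DNA they were above in atrium and below in ventricle. The part of DNA amount in any single ratio was not tested.

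Within these ranges TF1-2 stayed below TF3-4 by medians, least so at high DNA. In atrium TF1-2 had 0.52, -0.69 and -0.88 and TF3-4 had 1.23, -0.11 and -0.82 from low to high DNA. In ventricle TF1-2 had 0.38, -0.62 and -0.89 and TF3-4 had 1.47, -0.10 and -0.62. In the middle range 1 of 15 TF1-2 members (6.67%) was above DNA in atrium and 4 of 17 TF3-4 members (23.5%) were, against 231 of 570 regions (40.5%) in all. The difference of the medians over all tested members, -0.45 in atrium, was -0.29 when only members with a mean of at least 100 DNA counts were kept.

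The members with the highest ratios over DNA had little DNA. All 8 of the highest in atrium had means of 10 to 48.8 DNA counts, a range in which the median of all regions was already 1.21. They lay at Thnsl1, Polr3g (an RNA polymerase III subunit), Grb10 (an adaptor of the insulin receptor, with 2 members), Mrvi1, Tcf7l1 (a transcription factor of Wnt signalling), Prdm16 (a zinc finger regulator) and Rbpms. The highest, GeneAVB-891-0 with Thnsl1 as nearest gene at 33761 bp, measured 31.2, 67.2, 59.6, 68.4 and 24.4 CPM in atrium, 25.4, 14.3, 15.6, 18.8 and 21.5 CPM in ventricle and 3.11, 7.15, 2.92, 6.91 and 3.26 CPM in DNA. The RNA libraries were all above the DNA. Its ratios over DNA were 3.30 ± 0.41 in atrium and 2.0 ± 0.34 in ventricle, and it was also higher in atrium, by 1.43 ± 0.35 (adjusted p = 0.00506), with chambers that overlapped slightly.

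Both Grb10 members were above DNA in both chambers. GeneAVB-298-0, a TF3-4 region at chr11:11993460-11993859, measured 61.4, 64.8, 50.9, 55.1 and 59.8 CPM in atrium, 96, 76.4, 70.7, 71.8 and 84.6 CPM in ventricle and 7, 11.4, 9.35, 13.4 and 7.44 CPM in DNA. No RNA library came near the DNA range, and the ratios were 2.47 ± 0.25 in atrium and 3.03 ± 0.22 in ventricle. The chamber difference of -0.43 ± 0.20 did not pass (adjusted p = 0.116) although the libraries of the chambers did not overlap. GeneAVB-296-0, a TF1-2 region in the same gene, had 2.51 ± 0.39 and 2.97 ± 0.31.

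In ventricle the highest ratio was that of the Mrvi1 region, 3.93 ± 0.24, followed by Grb10 and by the TF3-4 member inside Prdm16 at 3.02 ± 0.22. Syt7, at 2.64 ± 0.09, had the smallest error of the 8 and the most DNA, with a mean of 955 counts. Tcf7l1 (2.58 ± 0.28), Socs3, an inhibitor of cytokine signalling (2.55 ± 0.25), and Rprd1b (2.41 ± 0.17) completed the set. Prdm16 also had a TF1-2 member, GeneAVB-1256-0, that was below DNA in both chambers, at -1.21 ± 0.15 and -0.51 ± 0.11, and higher in ventricle (-0.58 ± 0.16, adjusted p = 0.0102, and 0.0527 without replicate 1). Its ventricular call over DNA ended with library totals (-0.13, adjusted p = 0.239) and at a mean of at least 100 DNA counts (-0.12, adjusted p = 0.296).

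At the other end, 2 of the 5 lowest members in atrium rest on very few atrial counts. GeneAVB-674-0, 7557 bp from the zinc finger gene Glis2, had 1 atrial count in all against 52 in DNA, a 36.4-fold lower rate with a 95% interval from counting error alone of 6.26 to 1466. Its fitted ratio of -4.86 was -6.33 without atrial replicate 5. GeneAVB-809-0, 43665 bp from Psd2, had 7 atrial counts against 212, 21.2-fold lower with an interval of 10.1 to 53.4, and its fitted ratio of -4.57 was -5.21 without atrial replicate 1. Lamb3, described above, had the smallest error of the 5.

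The 2 overlapping members at the start of Hip1, whose promoter is printed above, were both below DNA in ventricle. GeneAVB-1359-0 (chr5:135488873-135489272), which reaches into the gene, measured 97.8, 63.6, 50, 16.1 and 25.6 CPM in atrium, 41.4, 23.1, 14.1, 16.6 and 7.16 CPM in ventricle and 449, 453, 629, 407 and 450 CPM in DNA. RNA was below DNA in every library, at -3.38 ± 0.40 in atrium and -4.65 ± 0.37 in ventricle, the lowest ventricular ratio of any member. GeneAVB-1360-0 (chr5:135489150-135489549), which holds the whole printed stretch, had much less DNA, with 4.28, 7.63, 9.35, 3.69 and 4.19 CPM. Its ventricular RNA amounted to 8 counts against 60 in DNA, 8.56-fold lower with a counting interval of 4.08 to 20.7. Its fitted ratio of -3.18 ± 0.70 was -3.77 without ventricular replicate 1. The pair shares 123 bp, and the sources used here do not say how reads from shared bases were assigned.

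Of the other members with printed sequence, the Gm32718 stretch with its GATA and TEAD letters sits in a TF3-4 region with a mean of 10.6 DNA counts, 21742 bp from Adrb1, the beta-1 adrenergic receptor. It was above DNA by 1.23 ± 0.42 in atrium (adjusted p = 0.0163) and 1.74 ± 0.46 in ventricle (adjusted p = 0.00248). The ventricular ratio was 1.02 without replicate 4. Over all regions with a mean of 10 to under 100 DNA counts the medians were 1.21 and 1.43, and this member lay at the low end of that range. The member that reaches the start of Gm19497, GeneAVB-1043-0, did not pass against DNA in either chamber, with 0.26 ± 0.20 and -0.05 ± 0.13. The adjoining upstream member, GeneAVB-1044-0, was below DNA, at -1.03 ± 0.14 in atrium and -1.27 ± 0.13 in ventricle. The Fmod gene is the nearest protein-coding gene of both, and 28 bp separate them.

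Some neighbouring members gave different ratios. There were 13 pairs of members within 2000 bp of each other, 3 of which overlapped, and in 8 of the 13 both members were tested. Inside Ampd3, which encodes an AMP deaminase, GeneAVB-1571-0 (chr7:110810106-110810505) and GeneAVB-1572-0 (chr7:110810317-110810716), both TF3-4, share 189 bp. The first measured 1066, 958, 879, 1022 and 760 CPM in atrium, 771, 729, 799, 735 and 686 CPM in ventricle and 481, 446, 529, 448 and 474 CPM in DNA. The second measured 570, 602, 421, 464 and 637 CPM in atrium, 438, 370, 376, 402 and 386 CPM in ventricle and 766, 738, 872, 749 and 816 CPM in DNA. The first was above DNA in every RNA library and the second below it in every one. Their ratios were 0.88 ± 0.10 and -0.65 ± 0.12 in atrium and 0.65 ± 0.08 and -1.0 ± 0.08 in ventricle. With library totals the second no longer passed in atrium (-0.17, adjusted p = 0.167). Both were higher in atrium than in ventricle, by 0.35 ± 0.10 and 0.47 ± 0.12.

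Inside Tg, the thyroglobulin gene, a pair of members 438 bp apart differed in the chamber they favoured. The TF3-4 member GeneAVB-593-0 had an atrium over ventricle ratio of -0.69 ± 0.22 (adjusted p = 0.0287), and the TF1-2 member GeneAVB-594-0 had 1.40 ± 0.40 (adjusted p = 0.0137). The first measured 72.8, 56.5, 45.2, 63.6 and 47 CPM in atrium and 107, 101, 94.1, 99.5 and 61.4 CPM in ventricle. The second measured 41.6, 19.6, 68, 55.6 and 23.8 CPM in atrium and 15.3, 11, 15.6, 12.2 and 25.9 CPM in ventricle. In each member 1 ventricular library, replicate 5, fell within the atrial range. The call of GeneAVB-593-0 ended when 1 of atrial replicates 2, 3 and 5 or of ventricular replicates 1 to 4 was left out (adjusted p of 0.0509 to 0.0735). At Ccdc63, 2 TF1-2 members separated by 1519 bp had 1.38 ± 0.34 and -2.66 ± 0.25 over DNA in atrium. Their means were 86.6 and 840 DNA counts. The first, GeneAVB-1342-0, had 34.3 CPM in atrial replicate 1, within its DNA range of 28 to 56.2 CPM.

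A further 8 members overlapped a region of another group by 9 to 188 bp. In atrium over DNA the member was lower than its partner in 4 of these pairs and higher in 4. GeneAVB-1614-0, a TF1-2 region 1699 bp from the cyclin D1 gene Ccnd1, shares 127 bp with a region of group MTF or P300. The member measured 268, 203, 112, 183 and 265 CPM in atrium and 594, 676, 768, 688 and 670 CPM in DNA, and the partner 182, 166, 122, 232 and 120 CPM in atrium and 7.78, 9.06, 5.84, 7.83 and 7.91 CPM in DNA. Their RNA levels thus overlapped while their DNA differed widely, and the ratios were -1.83 and 4.3.

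In 1 of the 8 pairs, at Syt7, the chamber differences had opposite directions and both passed. The ventricle-favouring member GeneAVB-844-0, given above, shares 81 bp with GeneAVB-845-0 of group MTF or P300. That region measured 244, 432, 215, 417 and 168 CPM in atrium, 116, 96.6, 120, 75.7 and 80.1 CPM in ventricle and 165, 159, 219, 148 and 167 CPM in DNA. All its atrial libraries were above its ventricular ones, the reverse of the member, with an atrium over ventricle ratio of 1.62 (adjusted p = 2.4e-04) beside -0.96.

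Cxxc5, which encodes a CXXC zinc finger protein, had the most members, 5 regions on chromosome 18, and their values covered much of the range seen in the whole set. GeneAVB-806-0, a TF3-4 region 13577 bp from the gene, measured 1430, 1754, 1755, 1935 and 1474 CPM in atrium, 885, 847, 920, 1126 and 933 CPM in ventricle and 647, 660, 684, 693 and 707 CPM in DNA. The 3 ranges were separate, with the atrium on top, and atrium over ventricle was 0.84 ± 0.10 (adjusted p = 1.3e-05). GeneAVB-799-0, a TF1-2 region inside the gene, measured 44.7, 27.4, 32.5, 35.6 and 59.8 CPM in atrium, 80.7, 70.5, 80.3, 77.1 and 113 CPM in ventricle and 95.7, 83.4, 128, 88.4 and 91.2 CPM in DNA. There the ventricle was above the atrium and overlapped the DNA, with a chamber ratio of -1.07 ± 0.26 (adjusted p = 0.00491).

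The other 3 Cxxc5 members did not differ detectably between the chambers. GeneAVB-800-0 (TF3-4) was close to DNA in atrium, at 0.03 ± 0.16, and at 0.26 ± 0.09 in ventricle, a call that ended without any of several libraries, for example at an adjusted p of 0.078 without replicate 1. GeneAVB-802-0 (TF3-4) was below DNA, at -1.81 ± 0.26 and -1.77 ± 0.16. GeneAVB-807-0 (TF1-2), 26240 bp from the gene, was lowest at -3.70 ± 0.55 and -3.36 ± 0.53, with 16.6, 5.95, 0.877, 1.9 and 1.83 CPM in atrium against 53.3 to 60 CPM in DNA. Without replicate 1 its atrial ratio was -4.57, and without ventricular replicate 5 its ventricular ratio was -4.27.

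Ddc had 3 tested members and Lclat1, an acyltransferase gene, 2 of its 4. Beside GeneAVB-289-0, Ddc had GeneAVB-275-0 (TF3-4), which was higher in ventricle, with a log2 ratio of -0.91 ± 0.27 (adjusted p = 0.0191, 0.0576 without replicate 1 and 0.063 without ventricular replicate 5), and GeneAVB-274-0 (TF3-4), at 0.12 ± 0.25. By the main fits, members inside 1 gene thus favoured different chambers. The chambers overlapped at GeneAVB-275-0, and its call also ended with no filter and with filterByExpr (adjusted p of 0.0671 and 0.0581). The Lclat1 members GeneAVB-773-0 and GeneAVB-774-0 were 0.49 ± 0.20 and 1.20 ± 0.45 over DNA in atrium, calls that ended when the replicate number was used as a block for the first (adjusted p = 0.0574) and without atrial replicate 1 for the second (adjusted p = 0.0581). The block also ended the second's call in ventricle (adjusted p = 0.0839), and leaving out other single libraries ended these calls too (adjusted p of up to 0.0911).

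The 53 members outside the tests had almost no DNA but not always little RNA. In 21 of them, 11 of TF1-2 and 10 of TF3-4, all 5 DNA libraries had 0 counts, as they had in 488 of the 3820 regions of the whole series. Summed over these 21, the counts were 10, 1999, 3534, 2782 and 2128 in atrial replicates 1 to 5 and 14, 5200, 6183, 6594 and 5593 in ventricular replicates 1 to 5. Replicate 1 thus resembled the DNA, and replicates 2 to 5 did not. In 19 of the 21, each of the 8 RNA libraries of replicates 2 to 5 had more than 3 counts.

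These members included regions at genes of heart function. GeneAVB-353-0, a TF3-4 region inside Cacna1g, which encodes a T-type calcium channel of pacemaker tissue, had counts of 0, 471, 760, 668 and 491 in atrium, 0, 1534, 1637, 1950 and 1381 in ventricle and 0 in DNA. In CPM of the plain library totals (total-scaled CPM) this was 274 to 321 in atrium and 445 to 536 in ventricle over replicates 2 to 5. A TF1-2 region inside Csrp3, the muscle LIM protein gene, had 0 in both replicate 1 libraries and 71.3 to 83 total-scaled CPM in the other atrial and 95.4 to 164 in the other ventricular libraries. GeneAVB-846-0, a TF1-2 region inside Syt7 with 3 DNA counts in all, reached 878 to 1153 total-scaled CPM in atrium and 1540 to 1799 in ventricle, and again 0 in both replicate 1 libraries. GeneAVB-1530-0, whose upstream stretch of 9130015G15Rik is printed above, had a mean of 5.4 DNA counts. It gave 13.7 total-scaled CPM in atrial replicate 1 and 0 in ventricular replicate 1, against 280 to 386 and 334 to 372 in replicates 2 to 5.

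In a fit of the chambers without a filter on DNA, 52 of the 53 could be included, and 1 was higher in ventricle and none higher in atrium by edgeR, with 2 at an unadjusted p under 0.05. In that fit 318 of all 3812 regions were higher in ventricle and 401 in atrium. The called region, GeneAVB-1484-0 inside Lmntd1, had 26 counts in atrium and 238 in ventricle, and a ratio of -2.20 ± 0.53 (adjusted p = 0.0163). No ratio over DNA is given for the 21, and the source of RNA counts without DNA counts was not tested.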

How the data were processed

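The authors deposited unnormalized counts for every region, as a table of the whole series and again library by library, and 0 values differed between both. The submitters' processing notes list mm10 as the build, with Bowtie2 2.3.4.3 and cutadapt 2.5 as tools. Per the labels' protocols a primer with a molecular identifier was used. The sources used here do not say whether the counts are reads or collapsed molecules, nor how reads were assigned to overlapping regions. Intervals and zero limits (3 counts) therefore cover counting error only.

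Each comparison was fitted on its 5 and 5 libraries with edgeR 4.0.16 (R 4.3.3, TMM scaling, quasi-likelihood test) over 2601 regions (mean DNA count of 10 or more), with Benjamini-Hochberg adjustment over all of them and a threshold of 0.05. The script was tested on simulated data. Fitted log2 ratios use each comparison's own scaling and differ from ratios of the printed CPM by a median of 0.02, -0.10 and -0.00 for atrium over ventricle, atrium over DNA and ventricle over DNA. Alternatives used DESeq2 1.42.0, voom of limma 3.58.1, other scalings and filters, left-out libraries and the replicate number as a block. Deviations from the group means of atrial and ventricular libraries with the same number correlated at 0.819 for replicate 1. For replicates 2 to 5 the correlations were 0.225 to 0.241, also over the criterion of 0.1. Only libraries of replicates 1 and 2 correlated best with their own number, so pairing of the chambers by number is not shown. The main fits used no block, and their chamber errors and p-values leave out any pairing. RNA and DNA libraries of 1 number correlated at -0.032 to 0.061 and were not taken to pair.

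Named regions were, between the chambers, up to 12 in each direction among called members with separate libraries. For each RNA over DNA comparison the same rule took 8 from the top and 5 from the bottom. Called members near listed chamber genes and the members of the genes with most of them were added. Overlapping and neighbouring pairs, Mb, Prdm16 and the members without DNA were described after their values were seen. The members and lists were chosen with earlier results of these data known. Nearest genes are protein-coding gene bodies within 100 kb of the midpoint. Motifs over whole regions were not compared, since no genome sequence was used here. By start sites, which the promoter table gives in part, 168 members had a start within 100 kb and 54 received another gene.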

Additional observations from a re-analysis of the deposited data

Results flagged for a closer look

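In the 45 named regions, single libraries were compared with the others of their group by Dixon's rule at its 95% value, which by chance alone marks about 1 group in 20. Of 138 groups, 3 for each region and 3 of the TF1-2 minus TF3-4 medians per library, 14 had such a library, 3 of them RNA replicate 1. For atrial RNA, Ddc GeneAVB-289-0 had 342 CPM in replicate 5 against 73.8 to 93.6 in the others, and Polr3g GeneAVB-521-0 had 275 in replicate 2 against 95.8 to 145. Glis2 GeneAVB-674-0 had 0.61 CPM in atrial replicate 5 against 0 in the others, and Psd2 GeneAVB-809-0 had 3.12 in replicate 1 against 0 to 0.877.

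For ventricular RNA, replicate 1 was high at Ccdc63 GeneAVB-1344-0 (159 CPM against 55.9 to 67.2) and Myl12a GeneAVB-756-0 (209 against 74.3 to 101). Replicate 5 was high at Cxxc5 GeneAVB-799-0 (113 against 70.5 to 80.7), Psd2 (13 against 0.602 to 1.84) and Glis2 (3.41 against 0 to 0.367). In DNA, replicate 3 was high at Ccdc63 GeneAVB-1344-0 (486 against 364 to 387), Hip1 GeneAVB-1359-0 (629 against 407 to 453) and Cxxc5 GeneAVB-799-0 (128 against 83.4 to 95.7), and low at Rprd1b GeneAVB-983-0 (29.8 against 58 to 68.2). Replicate 4 was high at Rbpms GeneAVB-9-0 (27.2 against 13.8 to 15.8).

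At 3 members RNA was below DNA in atrium and above it in ventricle, both past the threshold, and the chambers differed in their own edgeR test: Irx4 by -1.01, Fbln1 by -0.45 and GeneAVB-927-0 by -0.81 on the log2 scale, higher in ventricle in each case. This pattern was not counted over all regions. The atrial side of this pattern rests on the scaling, as given below. Beyond the tested regions, 19 members had no DNA counts in any library and more than 3 counts in each of the 8 RNA libraries of replicates 2 to 5.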

How the results depend on the processing

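Of 3750 alternative values for single described regions, 3450 kept their direction and their side of the threshold, 135 lost the call, 71 gained one and 94 turned their sign. Of the 94, 11 belonged to ratios past the threshold. For atrium over DNA these were Irx4 (0.10, 0.04 and 0.05), Fbln1 (0.11, 0.03 and 0.05) and GeneAVB-927-0 (0.14, 0.07 and 0.09) with library totals, with ESC-Neg scaling and at a mean of at least 100 DNA counts. For ventricle over DNA, Adamts8 and Fbln1 each had -0.04 with no filter.

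The other 83 belonged to ratios that did not pass. With the same 3 settings, Epha4 (0.27, 0.19 and 0.21) and Nav2 (0.36, 0.28 and 0.30) turned in atrium over DNA and Fmod GeneAVB-1043-0 (0.33, 0.13 and 0.34) in ventricle over DNA. In ventricle over DNA, library totals and the DNA minimum gave 0.14 and 0.16 at Slc35f2, 0.13 and 0.14 at Tg GeneAVB-593-0 and 0.18 and 0.19 at Cxxc5 GeneAVB-799-0, and library totals alone gave 0.10 at Myh7 and 0.08 at Ehd4 GeneAVB-951-0. DESeq2, no filter and filterByExpr gave -0.04, -0.19 and -0.14 at Kcnq1 and -0.08, -0.22 and -0.18 at Efs, where replicates 2 to 5 alone gave -0.09. For atrium over DNA, filterByExpr gave -0.01 at Ift43 and -0.12 at Cxxc5 GeneAVB-800-0, which had -0.10 with no filter and -0.00 with the replicate block. Between the chambers, ESC-Neg scaling gave 0.11 at Tcf7l1, 0.01 at Myh7, 0.06 at Myl12a and 0.05 at both GeneAVB-800-0 and GeneAVB-807-0. Replicates 2 to 5 alone gave 0.21 at Tcf7l1, 0.26 at Myl12a, -0.19 at Lclat1 GeneAVB-774-0 and 0.00 at GeneAVB-800-0. A term for replicate 1 gave 0.01 at Myl12a and -0.02 at GeneAVB-774-0, which also had -0.02 with library totals. Voom gave 0.04 at Tcf7l1, no filter 0.00 at GeneAVB-807-0 and the replicate block -0.01 at GeneAVB-802-0.

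Sign turns on leaving out 1 library were also found. Between the chambers the values ran from -0.28 to 0.25 at GeneAVB-774-0, -0.18 to 0.20 at GeneAVB-773-0, -0.24 to 0.09 at Tcf7l1, -0.49 to 0.02 at Myh7, -0.26 to 0.27 at Myl12a, -1.04 to 0.70 at GeneAVB-807-0, -0.14 to 0.21 at GeneAVB-802-0, -0.04 to 0.24 at Ddc GeneAVB-274-0, -0.08 to 0.28 at Socs3 GeneAVB-392-0, -0.42 to 0.16 at Ccdc63 GeneAVB-1344-0, -0.62 to 0.27 at GeneAVB-878-0 and -3.98 to 0.24 at Glis2. Over DNA in atrium they ran from -0.17 to 0.03 at Nav2, -0.14 to 0.19 at GeneAVB-800-0 and -0.06 to 0.43 at Mb, and in ventricle from -0.13 to 0.08 at Kcnq1 and -0.09 to 0.06 at Efs.

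With ESC-Neg scaling the members called between the chambers became 33 and 12. Library totals gave 57 above and 49 below DNA in atrium. With no filter 72 members were above DNA in atrium and 85 in ventricle, with 1930 of 3811 and 2051 of 3818 regions in all. A minimum of 100 mean DNA counts left fewer members in the test. There 48 members were below DNA in atrium, with 607 of 1747 regions in all. The difference of medians of TF1-2 and TF3-4 over DNA in atrium, -0.45, was -0.56 with no filter, -0.64 with filterByExpr and -0.29 at a mean of at least 100 DNA counts. In ventricle, -0.52 became -0.75 with no filter. The ventricular-list median was -1.06 at that minimum, where only Irx4 remained. Filters change which members are tested, and for the scalings the cause was not tested.

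Leaving out 1 library gave 16 to 23 members higher in atrium and 18 to 21 in ventricle, 32 to 37 above and 66 to 77 below DNA in atrium, and 40 to 44 and 72 to 81 in ventricle. Over all 2601 regions it gave 342 to 402 higher in atrium and 325 to 403 in ventricle. Against DNA, 988 to 1011 regions were above and 835 to 964 below in atrium, and 1064 to 1106 and 941 to 1036 in ventricle. The TF1-2 minus TF3-4 medians ran from 0.07 to 0.15 between the chambers, -0.56 to -0.43 for atrium over DNA and -0.56 to -0.49 for ventricle over DNA, and the medians near atrial and ventricular genes from 0.64 to 0.92 and -0.49 to 0.02. With the replicate number as a block, 24 and 25 members were called between the chambers, 32 and 76 over DNA in atrium and 42 and 75 in ventricle. Over all regions the block gave 441 and 428, 933 and 953, and 1090 and 988. The block ended 6 calls of described regions over DNA, where the numbers do not pair, and 0 between the chambers. Members with few DNA counts limit the ratios over DNA, and the alternative by start sites covered only part of the members.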
